A study of Mus musculus with 2 samples.

Results

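The replication-dependent histone genes of the mouse were followed in an open-chromatin map of the developing cortex. Members were all protein-coding genes of GENCODE release M21 on mm10 whose symbol begins with Hist followed by a cluster number of 1 to 4 and the letter h. This rule found 67 of 21938 protein-coding genes on chromosomes 1 to 19, X and Y, and it used no measured value. The study measured DNase I cutting in frontal cortex of B6CASTF1/J females, a cross of the B6 and CAST backgrounds, aged 10 days. There was 1 group of 2 libraries, which the labels call biological replicates 1 and 2, with no treatment, no mutant and no other tissue. A "3x" in the labels is left unexplained there, and both libraries carry the same donor entry, so whether they came from separate animals could not be settled.

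Replication-dependent histone genes encode the core histones H2A, H2B, H3 and H4 and the linker histone H1 that package newly made DNA, and they are transcribed mainly while a cell copies its genome. Their short genes lie in clusters, lack introns, and make mRNAs that end in a conserved stem-loop in place of a poly(A) tail. Npat, a coactivator in the histone locus body, acts at these promoters, Hinfp binds an element of H4 promoters, and Slbp holds the stem-loop of the mRNA.

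The members comprised 6 H1, 18 H2A, 18 H2B, 12 H3 and 13 H4 genes in 4 clusters. Hist1 on chromosome 13 held 54 of them, with 23 starts in a first block of 327.1 kb (chr13:21716143-22043214) and 31 in a second block of 403.4 kb (chr13:23531050-23934462). Hist2 on chromosome 3 held 10 members within 49.89 kb (chr3:96219865-96269752), Hist3 on chromosome 11 held 2, and Hist4 on chromosome 6 held 1.

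The sequences below were read from the GRCm38.p6 assembly along the strand of the motif or gene, and they are the reference letters, not those of the CAST alleles. The first set is shown because the letters GGTCCG, the core of the H4 promoter element, occurred in nearly all H4 promoters and in few others of the members. Capitals mark that core, found in 12 of the 13 H4 members, with 17 bases on each side.
Hist1h4j: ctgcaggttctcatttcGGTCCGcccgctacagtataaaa
Hist1h4k: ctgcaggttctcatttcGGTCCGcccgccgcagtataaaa
Hist1h4m: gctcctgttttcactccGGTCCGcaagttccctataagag
Hist1h4n: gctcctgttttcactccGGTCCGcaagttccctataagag
Hist1h4i: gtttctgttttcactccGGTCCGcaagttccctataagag
Hist1h4h: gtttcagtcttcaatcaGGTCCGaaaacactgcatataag
Hist1h4f: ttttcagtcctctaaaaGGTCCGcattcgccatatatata
Hist1h4d: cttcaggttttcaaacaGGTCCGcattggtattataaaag
Hist1h4c: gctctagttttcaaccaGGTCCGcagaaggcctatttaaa
Hist1h4b: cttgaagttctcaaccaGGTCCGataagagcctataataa
Hist2h4: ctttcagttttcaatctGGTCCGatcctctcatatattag
Hist4h4: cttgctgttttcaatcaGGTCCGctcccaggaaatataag

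The core lay on the gene's own strand in all 12 promoters, and it ended 6 to 75 bases before the gene start (median 44). The member without the core, Hist1h4a, had the strongest promoter peak of all members. The 200 bases before its first start in GENCODE or RefSeq (chr13:23761250-23761449, minus strand) are set beside those of Hist1h4c (chr13:23698459-23698658, minus strand), the next strongest. Both stretches end a little upstream of the gene starts from which distances are counted here. Capitals mark exact matches, on either strand, to the E2F form TTTCCCGC, to the CRE letters TGACGTCA, to the CCAAT box and to the H4 core.
Hist1h4a: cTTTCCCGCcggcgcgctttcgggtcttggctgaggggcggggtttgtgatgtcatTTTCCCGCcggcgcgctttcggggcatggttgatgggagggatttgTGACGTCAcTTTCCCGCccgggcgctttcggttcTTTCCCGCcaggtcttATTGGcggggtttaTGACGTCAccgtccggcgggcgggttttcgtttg
Hist1h4c: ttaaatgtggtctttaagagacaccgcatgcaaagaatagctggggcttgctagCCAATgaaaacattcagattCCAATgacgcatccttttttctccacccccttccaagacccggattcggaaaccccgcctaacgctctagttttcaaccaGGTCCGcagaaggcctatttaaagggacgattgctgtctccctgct

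Hist1h4a carried 4 matches to TTTCCCGC and 2 to TGACGTCA in repeated blocks, where Hist1h4c carried the H4 core and a pair of CCAAT boxes. In both libraries a footprint, a short stretch protected from DNase I cutting, covered at least 0.5 of the length of both CRE matches of Hist1h4a and of the H4 core of Hist1h4c. The same held for 2 of the 4 TTTCCCGC matches of Hist1h4a and 1 of the 2 CCAAT boxes of Hist1h4c. It did not hold for the CCAAT box of Hist1h4a.

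The next set comes from between divergent H2A and H2B genes, whose promoters face away from each other. Each stretch is trimmed to the bases before every GENCODE and RefSeq start of both genes, so it can be shorter than the distance between the gene starts. Hist1h2bf/Hist1h2ad (chr13:23574208-23574380) was the strongest such pair by mean signal, Hist1h2ag/Hist1h2bj (chr13:22042950-22043197) the next by the mean though not in replicate 1, and Hist1h2ba/Hist1h2aa (chr13:23934157-23934436) encodes testis histones and had no peak. Plus strands are shown, with capitals, on either strand, for the CCAAT box, the CRE, the TATA box with the letters TATAAA, the octamer with the letters ATTTGCAT and the H1 box with the letters AAACACA.
Hist1h2bf/Hist1h2ad: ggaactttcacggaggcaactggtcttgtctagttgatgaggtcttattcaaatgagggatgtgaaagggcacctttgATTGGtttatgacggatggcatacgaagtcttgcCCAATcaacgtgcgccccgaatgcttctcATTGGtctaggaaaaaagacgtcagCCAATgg
Hist1h2ag/Hist1h2bj: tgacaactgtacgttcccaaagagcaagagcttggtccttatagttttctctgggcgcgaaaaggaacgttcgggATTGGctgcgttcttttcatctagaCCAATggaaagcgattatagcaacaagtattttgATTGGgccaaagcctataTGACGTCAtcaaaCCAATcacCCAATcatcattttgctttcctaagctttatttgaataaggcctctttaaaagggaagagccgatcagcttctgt
Hist1h2ba/Hist1h2aa: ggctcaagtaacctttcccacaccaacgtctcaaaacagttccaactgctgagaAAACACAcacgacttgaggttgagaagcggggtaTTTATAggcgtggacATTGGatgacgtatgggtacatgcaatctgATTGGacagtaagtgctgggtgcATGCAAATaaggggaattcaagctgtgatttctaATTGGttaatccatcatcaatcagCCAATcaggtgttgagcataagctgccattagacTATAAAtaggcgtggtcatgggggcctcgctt

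All 3 stretches held 4 or more CCAAT boxes. The closed testis pair held 2 TATA boxes, an octamer and an H1 box match besides, with 0 footprints in the printed stretch. Such matches were not particular to it. Hist1h2bf and Hist1h2ad had a TATAAA match outside the stretch printed, and the open pair Hist1h2ac/Hist1h2bc had TATAAA and octamer matches. Footprints covered 20.2% and 18.5% of the printed bases of Hist1h2bf/Hist1h2ad in replicates 1 and 2, and 34.3% and 25% of those of Hist1h2ag/Hist1h2bj, including its CRE in both libraries. Of the CCAAT boxes, 1 of 4 in Hist1h2bf/Hist1h2ad and 1 of 5 in Hist1h2ag/Hist1h2bj were covered in both libraries.

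Promoters were scored by the strongest peak overlapping the 500 bp on either side of an annotated start, using the authors' signal for each peak, and a promoter was called open where such a peak was listed. A promoter was open for 57 of the 67 members in replicate 1 and 58 in replicate 2, against 66.1% and 63.3% of all protein-coding genes. Both libraries listed a peak for 57 members, against 62.8% of all genes. The 57 and 58 open members rested on 48 and 49 distinct strongest peaks, because neighbours share peaks, so members are not independent of each other. In 54 of the 57 members open in both, the strongest peaks of the libraries overlapped.

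The typical member was open but not strongly so. Median signal over all members was 2.16 in replicate 1 and 2.19 in replicate 2, against 1.38 and 1.56 over all protein-coding genes. Among open promoters alone the order turned round, with medians of 2.34 and 2.75 for members against 3.13 and 3.73 for all genes. Of the 67 members, 46 lay above the median gene by mean signal and 10 lay above 75% of genes. The scaling of the signal is not stated and read depth is unknown here, and fewer cells with an open site cannot be told apart from less cutting per cell. All comparisons between members and all genes are descriptions without a test.

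**Figure D1:**
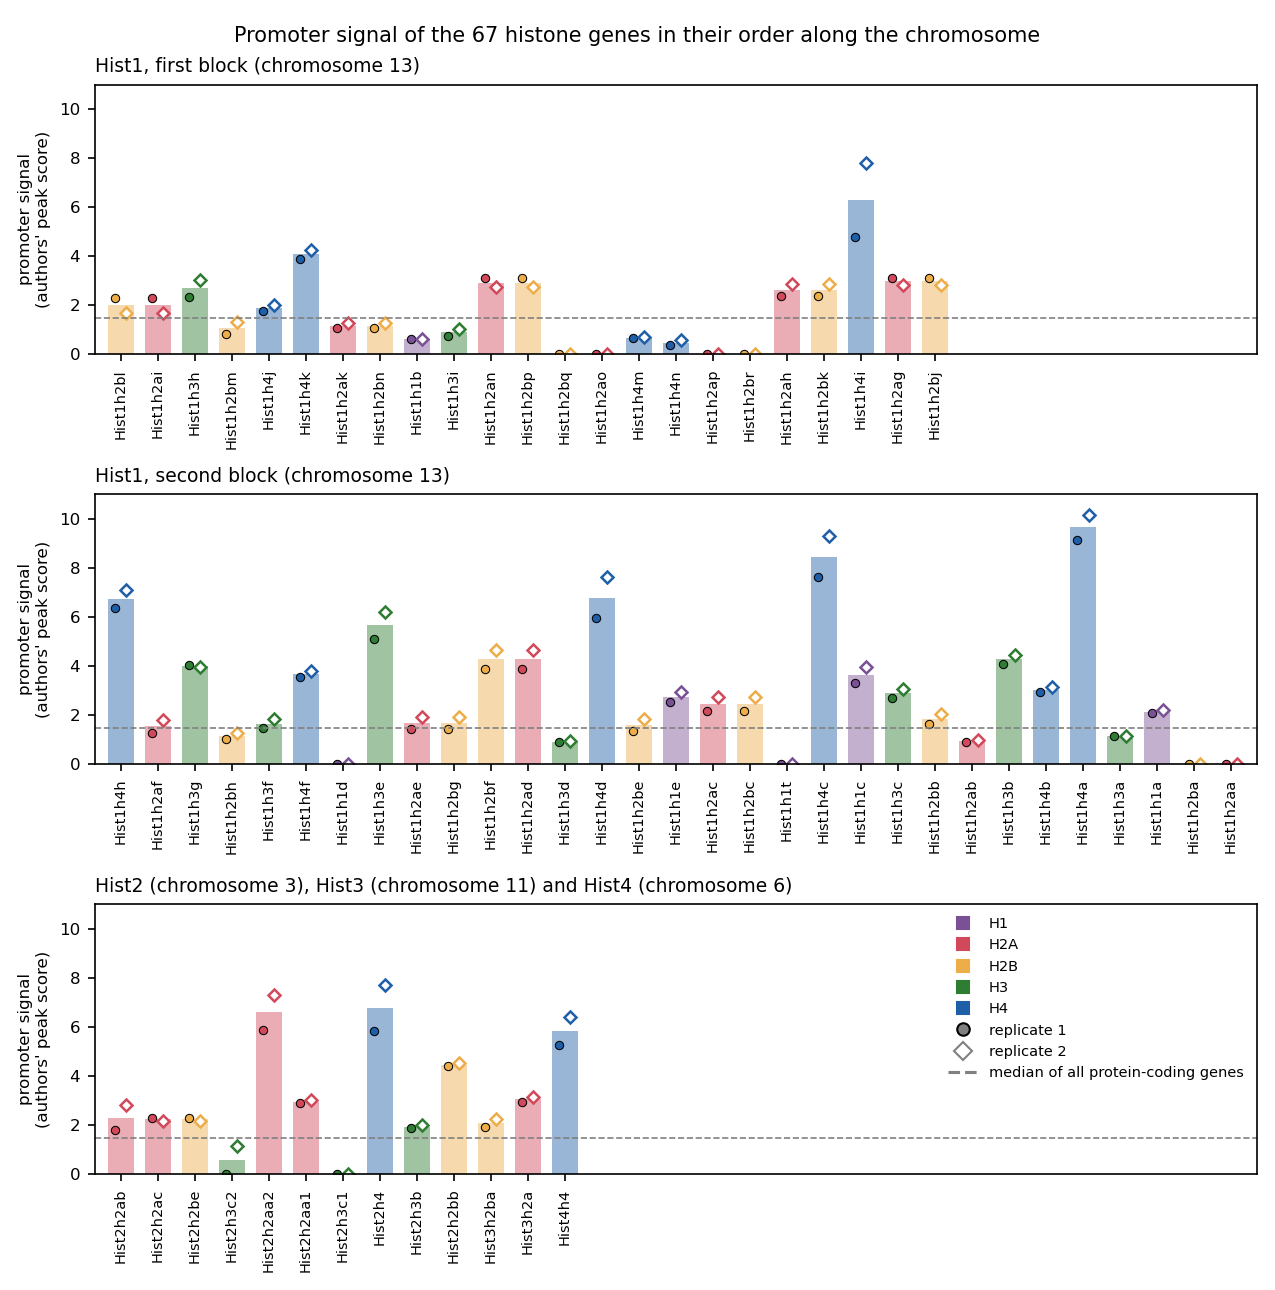
Promoter signal (the authors' peak score, y axis) of all 67 members in their order along each chromosome (x axis, not to scale). Bars are means of the 2 libraries, filled circles replicate 1, open diamonds replicate 2, colours the histone type, and the dashed line the median over all protein-coding genes. The tallest bars are H4 genes, led by Hist1h4a at 9.13 and 10.2, and 9 members have no bar.

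H4 promoters were the most open. All 13 H4 members had a peak in both libraries, with a median signal of 4.77 in replicate 1 and 6.39 in replicate 2, while medians of the other types ran between 1.35 and 2.23 in replicate 1 and up to 2.45 in replicate 2, the lowest there being 1.40. Of the 8 members with the highest mean signal, 7 were H4 genes, and these 7 each exceeded every H1, H2B and H3 member. The exception among the 8 was Hist2h2aa2, an H2A gene, with 5.85 and 7.31.

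**Figure D2:**
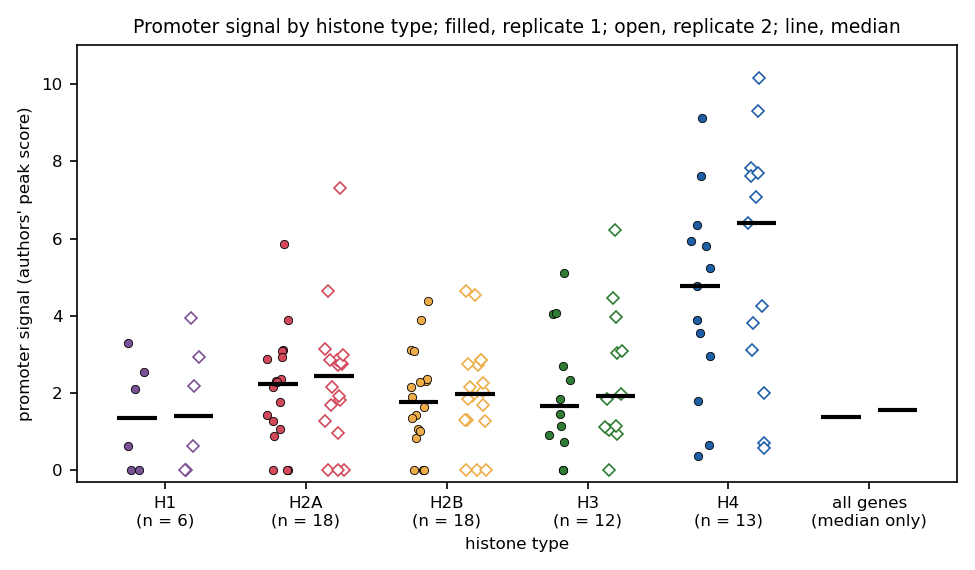
Promoter signal (authors' peak score, y axis) of each member by histone type (x axis). Filled circles are replicate 1, open diamonds replicate 2, and horizontal lines the medians, with the median over all protein-coding genes at the right. The H4 medians of 4.77 and 6.39 lie above those of the other types, and the types overlap.

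Hist1h4a reached 9.13 in replicate 1 and 10.2 in replicate 2, above 97.2% of all protein-coding genes by the mean. Hist1h4c had 7.63 and 9.29, above 94.8% of genes. Hist2h4, the H4 gene of the Hist2 cluster, had 5.81 and 7.70, and Hist4h4, the lone gene of its cluster, had 5.24 and 6.39. Every one of these was higher in replicate 2 than in replicate 1, as were most members. Hist1h4h had 6.35 and 7.08, Hist1h4d had 5.94 and 7.61, and Hist1h4i had 4.77 and 7.82, the widest gap between the libraries. A middle tier held Hist1h4k with 3.89 and 4.25, Hist1h4f with 3.55 and 3.81 and Hist1h4b with 2.95 and 3.12, which do not overlap with the strongest 7. Hist1h4j followed with 1.78 and 2.01, close to the median of the other types.

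The strongest peak of many H4 promoters sat in the same place in both libraries. Some promoters of other types did so too, such as Hist1h3e (-51.5 bp from the start) and Hist1h3g (-121.5 bp). Listed peak bounds mostly fall on regular steps, so centres are coarser than their decimals. Relative to the gene start, with upstream negative, its centre lay at -36.5 bp at Hist1h4c, -35.5 bp at Hist4h4, -42.5 bp at Hist1h4f and -67.5 bp at Hist1h4d in each library. In these 4 promoters the GGTCCG core ended 45, 43, 61 and 72 bases before the start. Centres also agreed between libraries at Hist1h4b (-62.5 bp), Hist1h4j (-93.5 bp) and Hist1h4h (-19.5 bp), with the core ending 65, 43 and 6 bases before the start. Peak centre and core did not always lie close. At Hist1h4i the centre lay at -18.5 and -8.5 bp with the core ending at 41 bases. At Hist1h4m and Hist1h4n the centre lay downstream of the start. At Hist1h4a the centre lay further out, at -200.5 bp in replicate 1 and -130.5 bp in replicate 2, within the repeated blocks printed above.

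Not all H4 promoters were strong. Hist1h4m had 0.651 and 0.699 and Hist1h4n had 0.359 and 0.564, the lowest of the type and below the median gene. Only 3.81% and 2.89% of the 32-base words within 500 bp of their starts occur once in the genome, and the 2 genes share 933 of 970 words. The part of read mapping in these low values was not tested.

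H3 genes encode the core histone that pairs with H4. Compared with H4 genes, they had a lower median signal, 1.65 in replicate 1 and 1.91 in replicate 2, and a narrower range. Hist1h3e had the highest signal of them, 5.10 and 6.21, with 13 and 7 footprints, and Hist1h3i the lowest mean in the Hist1 cluster, with 0.740 and 1.04. Hist1h3b had 4.06 and 4.47 and Hist1h3g had 4.04 and 3.97, while Hist1h3c had 2.70 and 3.08 and Hist1h3h had 2.34 and 3.05. At the low end Hist1h3a had 1.13 in each library, and Hist1h3d had 0.901 and 0.936, below Hist1h3i in replicate 2. In Hist2, Hist2h3b had 1.85 and 1.97. Its neighbour Hist2h3c2 had no peak in replicate 1 and a signal of 1.14 in replicate 2, and Hist2h3c1 had no peak in either. Hist2h3c2 was the one member open in a single library. In replicate 1 the authors' table of false discovery rates of the cut rate still listed 8 bases near its start, with a lowest rate of 0.0409. Only 3.3% of the words within 500 bp of the start of Hist2h3c2 occur once in the genome. Hist2h3c2 shares 923 of its 970 words with Hist2h3c1. The part of read mapping in its difference between the libraries was not tested.

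Linker histone genes differed widely. Hist1h1c had the highest H1 signal, 3.30 and 3.95, followed by Hist1h1e with 2.53 and 2.94 and Hist1h1a with 2.09 and 2.19. Hist1h1b was low in both libraries at 0.615 and 0.620. Hist1h1t, the testis linker histone, had no peak in either.

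Hist1h1d was also without a peak at its annotated start, and 100% of the words there are single. That annotated start, at chr13:23553262, lies upstream of the start codon at chr13:23555090. At the start codon the signal was 2.03 and 2.09, with 5 and 2 footprints, so the gene was open there in both libraries. This position was examined after its value at the annotated start was seen. The 200 bases before its RefSeq transcript start (chr13:23554832-23555031, plus strand) are set beside those of Hist1h1c (chr13:23738607-23738806, plus strand). Capitals mark the H1 box, the TATA box and the CCAAT box on either strand.
Hist1h1d: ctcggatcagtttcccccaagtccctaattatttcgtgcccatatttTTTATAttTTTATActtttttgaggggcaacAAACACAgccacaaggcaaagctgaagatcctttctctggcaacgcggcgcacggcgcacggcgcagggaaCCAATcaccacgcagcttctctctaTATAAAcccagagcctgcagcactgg
Hist1h1c: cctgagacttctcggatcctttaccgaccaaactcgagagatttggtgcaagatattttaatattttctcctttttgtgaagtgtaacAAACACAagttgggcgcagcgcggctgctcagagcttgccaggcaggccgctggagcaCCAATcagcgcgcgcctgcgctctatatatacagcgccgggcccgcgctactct

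The H1 box, a motif of linker histone promoters, occurred in 4 of 6 H1 promoters by the GENCODE gene starts, ending 107 to 111 bases before the start. With the RefSeq start of Hist1h1d it occurred in 5 of 6, and there it ended 116 bases before the start. The 4 are shown with the box in capitals and 17 bases on each side, because they stand in promoters that ranged from closed to open.
Hist1h1b: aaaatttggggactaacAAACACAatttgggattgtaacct
Hist1h1e: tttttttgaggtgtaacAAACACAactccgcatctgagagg
Hist1h1t: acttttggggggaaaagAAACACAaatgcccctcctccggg
Hist1h1c: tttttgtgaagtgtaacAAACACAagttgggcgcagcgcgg
No footprint covered these 4 boxes in either library. A listed peak overlapped 3 of them in replicate 1 and 0 in replicate 2, so in the second library their coverage inside peaks could not be read. Over all genes, 2.16% and 1.56% of AAACACA matches were covered, and 12.4% and 9.9% of those within peaks. Thus 0 of 4 lies near the share over all genes.

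H2A and H2B genes stood mostly in divergent pairs. Heads facing and starts at most 1000 bp apart, 13 pairs took in 26 members, or 38.8% of members against 6.78% of all protein-coding genes. Of the pairs, 12 joined an H2A and an H2B gene, which covers 24 of the 36 H2A and H2B members. Their starts were 176 to 660 bp apart with a median of 268 bp, against 129.5 bp over 754 such pairs among all genes.

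Within a pair the signal was mostly 1 value, since both starts fell within reach of the same peak. Of the 10 pairs with peaks, 9 had the same strongest peak for both genes in each library, 90%, against 89.4% and 89.7% of such pairs among all genes. A peak lying between the starts, or reaching within 100 bp of both, was found for 4 pairs in replicate 1 and 7 in replicate 2. In both libraries that held for 4 of 13 member pairs, 30.8%, against 74.5% of pairs among all genes. The 13 include 3 pairs without a peak, while 716 and 707 of the 754 pairs among all genes had a peak near both starts. The part of the wider spacing of member pairs in this gap was not tested.

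Hist1h2bf/Hist1h2ad led with 3.89 in replicate 1 and 4.65 in replicate 2. Hist1h2ag/Hist1h2bj had 3.09 and 2.84, and Hist1h2an/Hist1h2bp had 3.11 and 2.73, so these were higher in replicate 1. Hist1h2ah/Hist1h2bk had 2.37 and 2.86 and Hist1h2ac/Hist1h2bc had 2.16 and 2.75. Lower down, Hist1h2ae/Hist1h2bg had 1.44 and 1.93 and Hist1h2ak/Hist1h2bn had 1.05 and 1.26, both with their peak centred inside the H2A gene in each library. The sequence between the starts of each open pair was 100% single words.

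Unpaired H2A and H2B genes of Hist1 were in the same low range. Hist1h2bb had 1.64 and 2.04, Hist1h2af had 1.26 and 1.82, Hist1h2bm had 0.839 and 1.31 and Hist1h2ab had 0.885 and 0.970. The values of Hist1h2bm were the same as at the pseudogene Hist1h2aj beside it. Hist1h2be, whose annotated gene start also lies far from its start codon, had 1.34 and 1.85 within 500 bp of its 3 annotated starts. These 2 values came from different peaks, both within the span of the gene Hist1h1e. Their centres lay at -596.5 bp in replicate 1 and 127.5 bp in replicate 2 from the nearest start of Hist1h2be. At its start codon the signal was 1.23 and 1.61.

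The mixed pair Hist1h2bh/Hist1h3f, 660 bp apart, was the exception to sharing. Hist1h2bh had 1.01 and 1.29 and Hist1h3f had 1.45 and 1.85, from different peaks, and the Hist1h3f peak was centred 488.5 and 518.5 bp inside the gene. The start codon of Hist1h3f, at chr13:23544485, lies downstream of its annotated start at chr13:23544052, on the same side as that peak.

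Footprints fell between the starts in every open pair in replicate 1 and in every one but Hist1h2bh/Hist1h3f in replicate 2. Hist1h2ag/Hist1h2bj had 5 and 4 of them, and Hist1h2bl/Hist1h2ai had 6 and 4. Others lay inside the genes, on the coding side of the start.

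**Figure D3:**
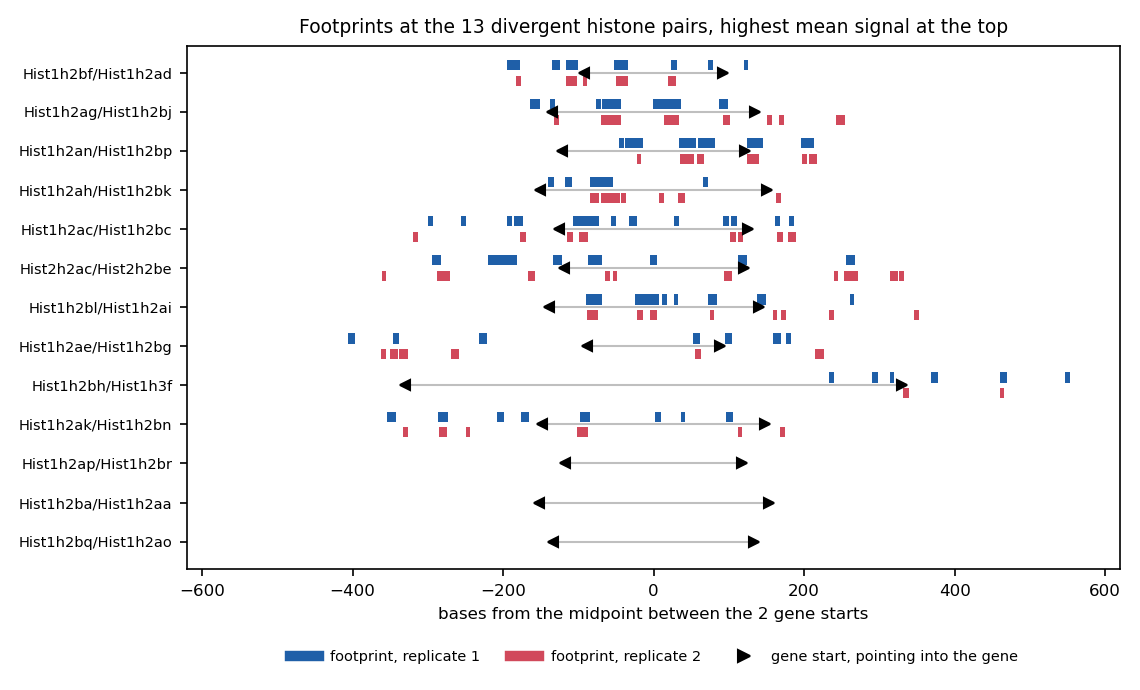
Footprints of replicate 1 (blue) and replicate 2 (red) at the 13 divergent pairs, drawn to scale by distance in bases from the midpoint between the starts (x axis), with pairs ordered by mean signal. Arrowheads mark the gene starts and point into the genes. The 3 pairs at the bottom have no footprint in either library.

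The 3 pairs without a peak were the testis pair Hist1h2ba/Hist1h2aa and the copies Hist1h2bq/Hist1h2ao and Hist1h2ap/Hist1h2br. The sequence between the testis genes is 100% single words, as it is in every open pair. In the copies it is 0% single.

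Testis genes and near-identical copies made up most of the closed promoters. In all, 9 members were open in neither library, and the authors' cut-rate tables listed 0 bases within 500 bp of any of them. The testis genes Hist1h1t, Hist1h2aa and Hist1h2ba and the linker gene Hist1h1d have 82.4% to 100% single words. The other 5 have 0% to 3.3%. They are Hist1h2bq, Hist1h2ao, Hist1h2ap, Hist1h2br and Hist2h3c1, and Hist1h2bq shares 968 of its 970 words with Hist1h2br. Counts assigned to genes this alike are uncertain, and the part of mapping was not tested.

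Among all members, 8 had under 10% single words, and their highest mean signal was 0.675. The median member had 63.6% single words, with 90.2% before the start and 36.4% from the start on, where the coding sequences resemble each other. Of the 47 members with at least 50% single words, 43 were open in both libraries, and of the 20 below that share 14 were.

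**Figure D4:**
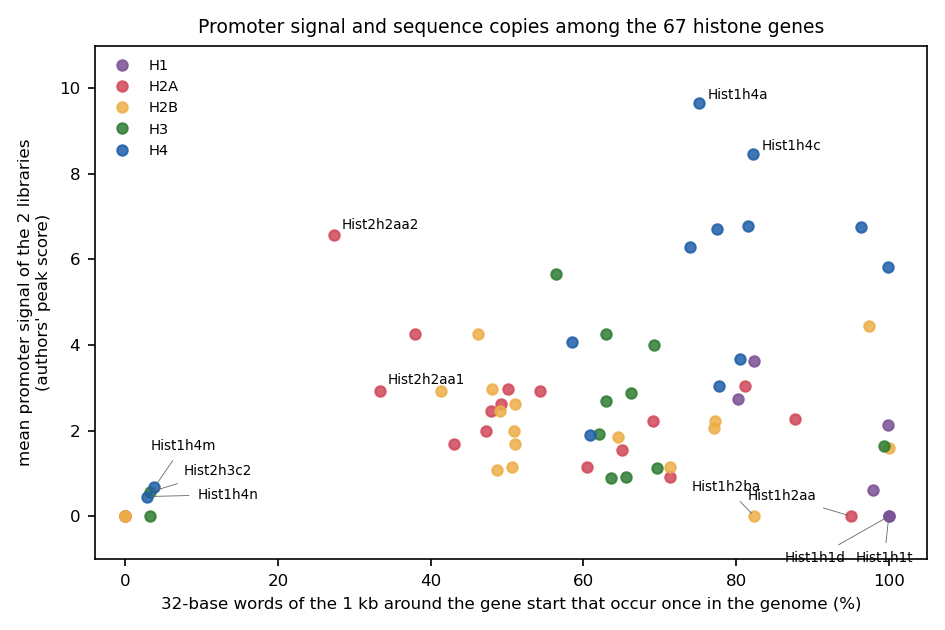
Mean promoter signal of the 2 libraries (authors' peak score, y axis) against the share of 32-base words within 500 bp of the start that occur once in the genome (x axis), for all 67 members coloured by histone type. The 8 members with under 10% single words have mean signals of at most 0.675, and 4 members with over 80% single words have none.

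The duplicated H2A genes of Hist2 were open with partly copied windows. Hist2h2aa2 and Hist2h2aa1 share 647 words and have 27.3% and 33.3% single words, though 56.5% and 62% before the start. Hist2h2aa2 had 5.85 in replicate 1 and 7.31 in replicate 2, and Hist2h2aa1 had 2.88 and 2.99. The peak centre lay at -44.5 and -34.5 bp from the start of Hist2h2aa2 and at -246.5 and -256.5 bp from that of Hist2h2aa1.

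The remaining Hist2 and Hist3 genes were moderately open. Hist2h2bb, an H2B gene, had 4.38 and 4.53, and Hist2h2ab had 1.77 and 2.79. The divergent Hist2h2ac/Hist2h2be had 2.29 and 2.17. In Hist3, Hist3h2a had 2.93 and 3.15, the same values as at the pseudogene Hist3h2bb-ps beside it, and Hist3h2ba had 1.90 and 2.24. Hist3h2a held 16 and 15 footprints and Hist3h2ba 8 and 12, against a median of 7 and 6 over open members.

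The libraries ranked the members alike. Of the 57 open in both, 47 were higher in replicate 2, with a median ratio of replicate 2 over replicate 1 of 1.18 for members and 1.13 for all genes. Ratios ran between 0.727 and 1.64. The extremes were the pair Hist1h2bl/Hist1h2ai, with 2.31 in replicate 1 and 1.68 in replicate 2, and Hist1h4i, with 4.77 and 7.82. Spearman's rho between the libraries was 0.953 over the 57 members and 0.984 over 13776 genes, points that share these 2 libraries.

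A footprint lay within 500 bp of a start in 56 members in replicate 1 and 58 in replicate 2, against 65% and 61.2% of all genes. Open members held a median of 7 and 6 footprints, against 8 and 6 over all open genes. Of the members' footprints, 63.1% in replicate 1 and 62.3% in replicate 2 lay upstream of the gene start, against 50.1% and 53.9% for all genes. Peaks went the other way. The strongest peak's centre was upstream in 61.4% and 62.1% of members with a peak, against 69% and 69.1% of all genes with one. Footprints between paired genes count for both of them.

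Motif content followed histone type. Exact matches on either strand were counted from 250 bases before to 50 after the gene start. CCAAT, the NF-Y site, occurred in 100% of H2A and of H2B promoters, 91.7% of H3 and 30.8% of H4 promoters, and in 83.6% of members against 39% of all genes. ATTTGCAT, the site of Pou2f1, occurred in 38.9% of H2A and 44.4% of H2B promoters and in no promoter of another type, or 22.4% of members against 1.57% of all genes. TATAAA occurred in 55.2% of members against 12.6% of all genes.

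GGTCCG occurred in 92.3% of H4 promoters and in 3 of the other 54 members, against 9.6% of all genes. AAACACA occurred in 66.7% of H1 promoters, and in 13.4% of members against 6.4% of all genes. The E2F form TTTCCCGC occurred in 4.48% of members, all H4 genes, against 1.34%, the form TTTGGCGC in 0 members against 0.693%, and TGACGTCA in 5.97% against 2.43%. Paired genes share windows, and a match is no evidence of binding.

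**Figure D5:**
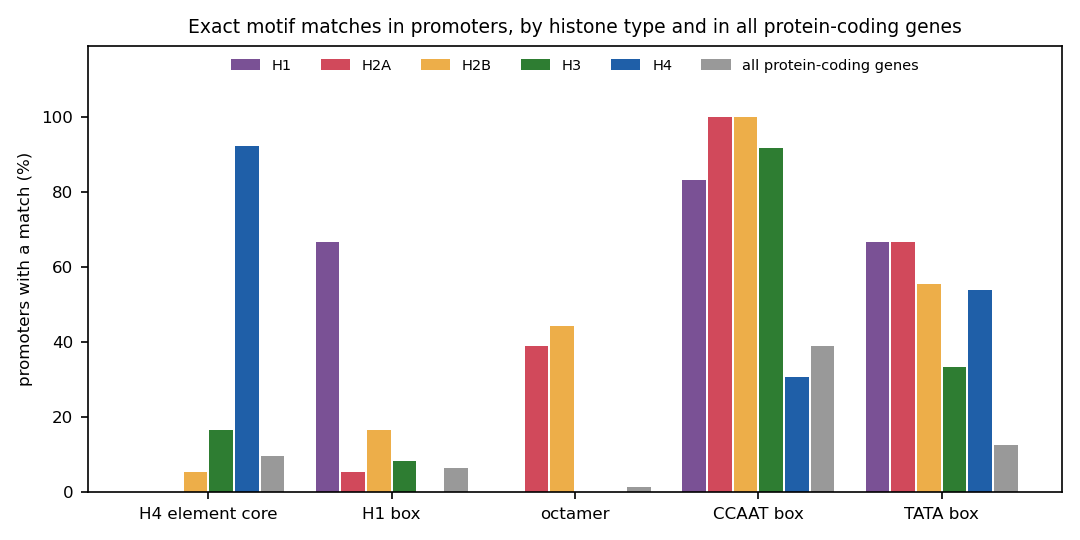
Share of promoters with an exact match (y axis, percent) to each motif (x axis), for the 5 histone types in colour and all protein-coding genes in grey. The H4 core stands at 92.3% in H4 promoters and the octamer at 0% outside H2A and H2B among the members.

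Footprints covered some motifs more often than others. The H4 core was under a footprint at 7 of 12 H4 promoters in each library (58.3%), 6 of them in both, and at 4 in neither, against 23.1% and 19.2% of GGTCCG matches over all genes. Of the H4 matches that lay in a peak, 63.6% were covered in each library, against 30.9% and 29% over all genes. All 4 distinct CRE matches of the members were covered in both libraries, against 73% and 67.1% over all genes. Within peaks the members' share was 100% in each library, on 3 and 4 matches, against 89.3% and 85.6% over all genes, a smaller gap.

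Matches outside peaks lower the share over all genes, so shares within peaks are set beside the others. Of 35 distinct TATA matches of the members, 40% and 28.6% were covered, against 3.77% and 2.65% over all genes, and within peaks 57.9% and 55.6% against 32.4% and 25.9%. Of 111 CCAAT matches, 21.6% and 15.3% were covered, against 13% and 10.6%, and within peaks 29% and 25% against 26.5% and 23.1%, so the CCAAT shares lay close together there. Over all 8 motif strings, 28.8% and 22% of 191 member matches were covered, against 13.6% and 11.2% of 20263 matches in all genes. Within peaks these shares were 38.7% and 36.5% against 30.6% and 27.4%, a smaller gap.

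At the other end of the genes, the mRNA stem-loop that Slbp binds was looked for within 200 bases after the stop codon. The search asked for 16 bases that start with GG, with a 6-base stem and a 4-base loop that starts with TT, so those letters were set beforehand. Such a stem-loop was found in 63 members, 22 to 59 bases after the stop (median 31), in 6 sequences. They are named by an example, with the 4-base loop in capitals, because this element follows genes of every type. The first occurred in 41 members and the second in 9.
Hist1h2ai: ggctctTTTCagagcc
Hist1h2bl: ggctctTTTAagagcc
Hist1h4k: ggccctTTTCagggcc
Hist1h4i: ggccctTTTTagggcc
Hist1h4j: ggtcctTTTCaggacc
Hist2h2ac: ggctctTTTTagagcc
No exact match was found after Hist1h2an, Hist1h3g, Hist1h4a or Hist2h2be, which were all open.

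Genes with related roles were mostly open, beside 62.8% of all protein-coding genes with a peak in both libraries. Of 21 genes for histone transcription and 3' processing, all had a peak in both libraries, led by Nfya (11.8 and 13.6), a subunit of the CCAAT-binding factor, and Npat (9.91 and 10.95). Cpsf2, a subunit of the cleavage machinery, was lowest at 2.72 and 3.62. Of 13 replacement histone genes, which are expressed outside S phase as well or in germ cells, 11 were open. H2afv had 8.95 and 11.7 and H2afz 8.06 and 9.61, while H2afy2 was lowest of the open ones at 2.22 and 2.31. H1foo and Hils1, germ-cell linker histones, had none.

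All 14 proliferation genes were open in both libraries, against 62.8% of all genes. Highest were Mcm5 (10.3 and 11.8), a helicase subunit, and Ccna2 (7.50 and 8.63), a cyclin, with Aurkb lowest at 1.98 and 2.31. An open promoter says nothing here of how many cells were dividing.

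Genes that lie among the histone genes were less open as a group of 9, with peaks at 4 in replicate 1 and 3 in replicate 2. Over all protein-coding genes the shares with a peak were 66.1% and 63.3%. Of the 9, Zfp184, a zinc finger gene, was highest at 3.93 and 3.79. The transporter genes Slc17a1, Slc17a2, Slc17a3 and Slc17a4 and the gene Trim38, in the second Hist1 block, had no peak in either library, while 27 of the 31 histone genes of that block were open in both.

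The first Hist1 block held 57 peaks in replicate 1 and 48 in replicate 2, of which 36 and 32 lay away from the histone starts. RefSeq annotates 31 tRNA genes in that block and none in the other blocks. Of the peaks away from histone starts there, 26 and 23 lay within 500 bp of a tRNA gene, with median signals of 0.74 and 1.16. A peak lay within 500 bp of 22 and 20 of the 31 tRNA genes. This was looked at after the peaks were counted.

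The libraries had 104654 peaks in replicate 1 and 81654 in replicate 2, and 293484 and 187137 footprints. Among markers, 9 and 8 of 9 neuronal genes had a promoter peak, 3 and 2 of 3 astrocyte genes, 3 of 4 oligodendrocyte-lineage genes in each, with Sox10 at 0, and 1 of 3 microglial genes in each. Endothelial genes had peaks at 2 of 2 in replicate 1 and 0 in replicate 2, the liver genes Alb and Apoa1 had none, and of En2 and Hoxa5, genes of other brain regions, En2 had a peak in replicate 1. The part of the mix of cells in the members' values was not tested.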

How the data were processed

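DNase-seq of 2 libraries was taken as deposited, in mm10 coordinates, per the file headers and labels. The authors deposited, per library, a pair of peak lists, footprints, and false discovery rates of the cut rate, which are adjusted p-values by nature. No source used here names the aligner, the callers, their versions or their thresholds. The signal of each peak is the authors' deposited value, with a scaling that is not stated, so depth is unknown and no interval could be given. The value deposited with each footprint was 0.01 throughout and was not used.

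The longer peak list of each library was used. Promoter signal was the strongest peak overlapping 500 bp on either side of any GENCODE M21 transcript start, and 0 where none was listed. Words of 32 bases were counted over both strands of GRCm38.p6. Motifs were exact strings, called under a footprint if at least 0.5 of their length was covered. Python 3.11.15 with numpy 2.4.6, pandas 2.3.3 and matplotlib 3.10.9 was used, and the scripts were tested on simulated data.

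With 1 group no test was made, so values of both replicates stand side by side. Members and lists were chosen with earlier results of these data known. Genes named are the highest and lowest of each cluster and type, all without a peak in a library, all of Hist2, Hist3 and Hist4, the strongest 5 pairs, and the ends of each list. Genes named besides were chosen after their values were seen, and so were the tRNA counts, the motif coverage within peaks, the shares of single words beside closed promoters and the sequences printed. Other windows, start sites, peak lists and coverage rules were tried.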

Additional observations from a re-analysis of the deposited data

How the results depend on the processing

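Counts of open members kept between 51 and 58 of 67 under every alternative window, start site and peak list, against 57 as reported, and 43 of the 47 members with at least 50% single words were open, a restriction added after seeing the data. Start codons and RefSeq starts, both added after seeing the data, gave 58, since Hist1h1d became open. Members open in both numbered 55 in a window of 250 bp, 57 in a window of 1000 bp, 57 at gene starts alone and 51 in the shorter lists. The shares of all genes under these settings were 61.5%, 64.1%, 57.4% and 58.3%, against 62.8% as reported. Members with a footprint numbered 55 to 58. The median signal, 2.23 by the mean of the libraries, was 2.89 with all peaks of a window summed and 2.54 in a window of 1000 bp, and 2.16 to 2.19 with either library left out. Median footprints, 6 as reported, were 4.5 in a window of 250 bp and 5 to 6 with either library left out. Pairs sharing a peak numbered 4 as reported and 4 to 7 with either library left out. Motif matches under a footprint, 25.4% by the mean, were 17.5% when the whole match had to be covered and 20.3% over 500 bp on each side. The cause of these shifts was not tested. No paired analysis was possible because there was 1 group. With 2 libraries and an unstated scaling, the spread of a single member cannot be judged beyond its 2 values, and whether copied sequences without a peak are closed was not tested.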
